A study of Mus musculus with 21 samples.

Results

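The levels described here are those of 10 genes of the neuronal cytoskeleton and the axon. They are the neurofilament subunits Nefl, Nefm, Nefh and Ina, the microtubule genes Tubb3, Mapt, Map2 and Stmn2, and the growth cone and surface genes Gap43 and Thy1. They were taken by gene symbol from the 12393 genes measured, and 16 of the 20380 probe sets that name a single gene read them. Ina and Mapt were read by 3 probe sets each, Map2 and Stmn2 by 2 each, and the other 6 genes by 1 each. Where a gene had several, the probe set with the highest mean over all arrays stood for it.

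RNA of the cerebral cortex of 21 mice was hybridised to Affymetrix expression arrays, 1 array for each mouse. The study asked what human TDP-43, an RNA-binding protein that aggregates in amyotrophic lateral sclerosis and frontotemporal dementia, does to cortical transcripts when it is held out of the nucleus. The 5 dNLS bigenic mice (4 males, 1 female) of line NLS4 carried a transgene for TDP-43 with a defective nuclear localization signal together with tTA, the transactivator that switches it on. The 4 WT bigenic mice (1 male, 3 females) of line WT12 carried wild-type human TDP-43 and tTA. The 4 dNLS monogenic mice (3 males, 1 female) of line NLS4 carried the TDP-43 transgene without tTA. The 8 nontransgenic mice (4 males, 4 females by label) carried neither, and 6 came from line NLS4 and 2 from line WT12. All mice were of a mixed C57BL/6J and C3HeJ background and had been without doxycycline, which keeps tTA inactive, for 2 weeks. In these published lines tTA is driven by the Camk2a promoter, which is active in forebrain excitatory neurons. No group carried tTA alone, so an effect of tTA and one of the driven TDP-43 cannot be told apart, and the mutant protein and its line cannot be told apart in the comparison of both bigenic groups. The labels used here give no age.

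Neurofilaments are the intermediate filaments of neurons. Light (Nefl), medium (Nefm) and heavy (Nefh) subunits and alpha-internexin (Ina) coassemble into one polymer that fills the axon and sets its calibre, and the light chain released into blood and cerebrospinal fluid is used as a measure of axon damage. Microtubules of tubulin, stabilised by tau (Mapt) and by MAP2 and kept dynamic by stathmins, are the tracks on which axonal cargo moves.

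In dNLS bigenic cortex the light neurofilament gene and alpha-internexin changed in opposite directions. Nefl fell, Ina, Tubb3 and Thy1 rose, and the other 6 genes did not pass the test. Against nontransgenic mice 4 of the 10 genes were called, at a Benjamini-Hochberg adjusted p at or under 0.05 in limma over all genes, where 22.3% of all genes were called. The 3 higher genes stand beside 10.8% of all genes called higher, and the 1 lower gene beside 11.5% called lower. The same 4 genes were called in the same directions against dNLS monogenic mice, where 14.3% of all genes were called, 7.76% higher and 6.54% lower. Against WT bigenic mice Nefl, Ina and Thy1 were called, with 10.8% of all genes called, 6.24% higher and 4.53% lower. These 3 comparisons share the dNLS bigenic arrays and are not independent of each other. None of the 10 genes was called in WT bigenic against nontransgenic mice, where 2.23% of all genes were, and none in dNLS monogenic against nontransgenic mice, where limma called 0% of all genes and 196 genes had an unadjusted p under 0.05. At that unadjusted level, too, 0 of the 10 genes passed in either of these comparisons, beside 2292 of all genes in WT bigenic mice. These counts are of the probe sets that stood for the genes. Among the others, an Ina probe set differed by -0.23 in WT bigenic against nontransgenic mice (limma unadjusted p 0.00745, adjusted p 0.123). The other Stmn2 probe set differed by 0.53 there (limma unadjusted p 0.0175, adjusted p 0.178). Neither was called, and no further probe set of the 10 genes passed the unadjusted level in either comparison. The median log2 change of the 10 genes was 0.21 against nontransgenic mice, 0.05 against dNLS monogenic mice and 0.08 against WT bigenic mice, beside 0 for the median of all genes in each. All genes here include 2854 of the 12393 that lay at the lowest value on all arrays and could show almost no change. These lower the share of all genes called wherever it is given, and add changes at or close to 0 to the median.

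**Figure D1:**
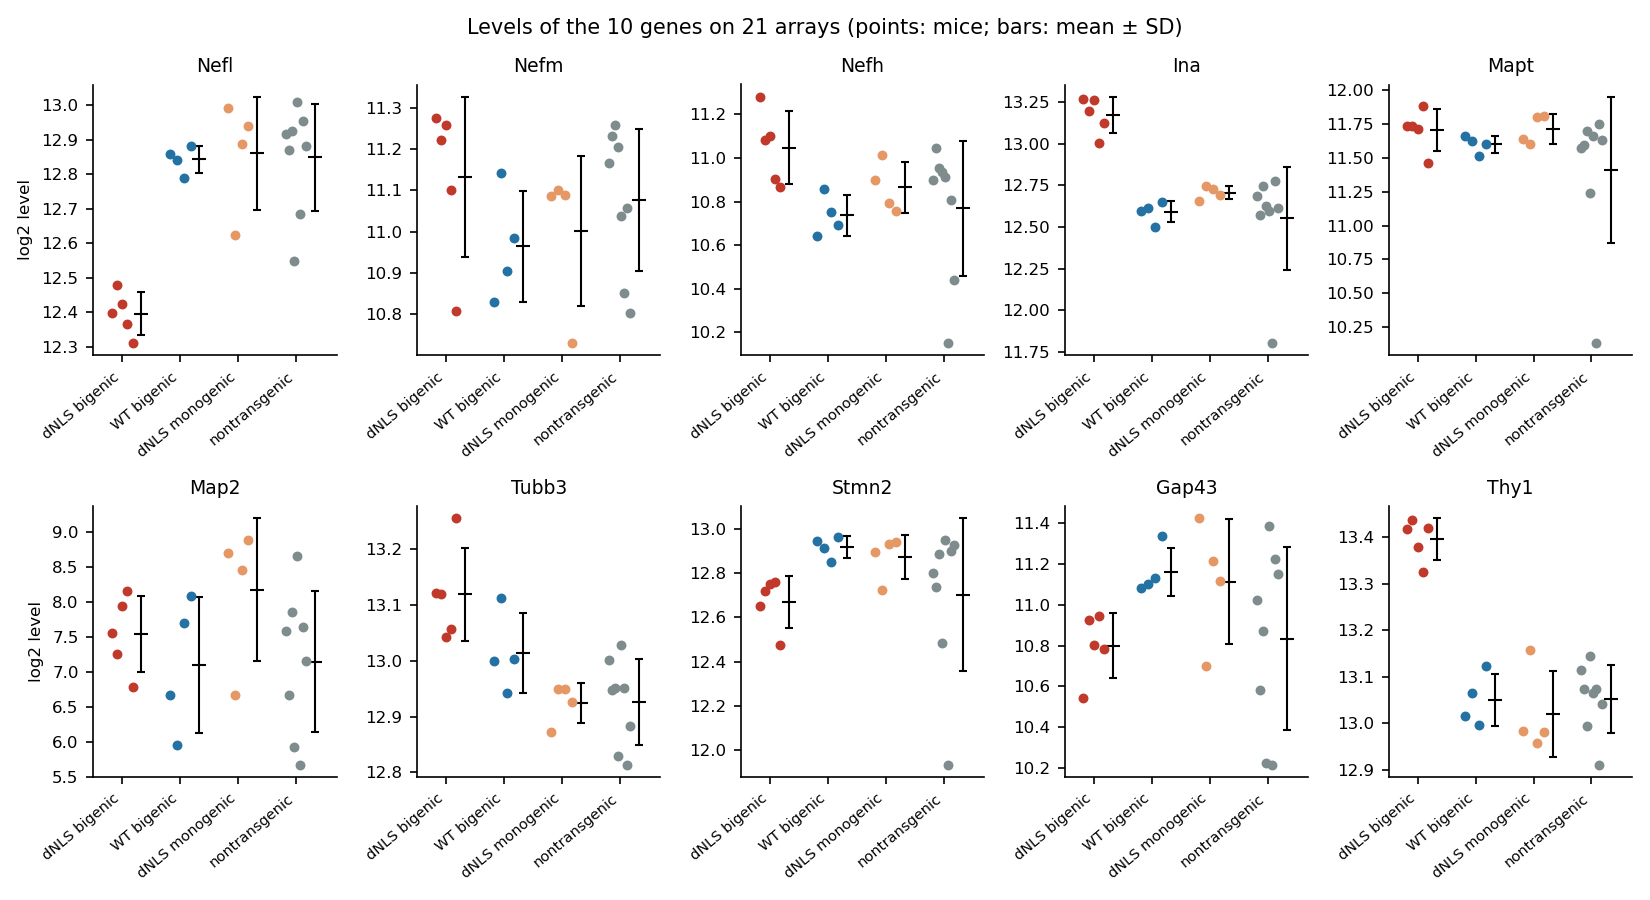
Log2 level of each of the 10 genes (vertical axis, its own range in each panel) on each array, by genotype group, with the mean and SD of the group beside the points. All 5 dNLS bigenic points lie below the other groups for Nefl and above them for Ina and Thy1, and nontransgenic array 6 is the lowest point for Ina, Mapt and Stmn2.

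Promoter sequences are shown for the cytoskeletal genes that rose and are held by the RefSeq promoter table of assembly GRCm38.p6, which holds Ina, Tubb3 and Map2 among the 10. Each runs 5′ to 3′ on the + strand of the assembly, which is the strand of the gene, from 250 bases before the annotated start to 50 after it. Capitals mark each GC box, GGGCGG or its reverse complement.
Ina, chr19:47014431-47014730: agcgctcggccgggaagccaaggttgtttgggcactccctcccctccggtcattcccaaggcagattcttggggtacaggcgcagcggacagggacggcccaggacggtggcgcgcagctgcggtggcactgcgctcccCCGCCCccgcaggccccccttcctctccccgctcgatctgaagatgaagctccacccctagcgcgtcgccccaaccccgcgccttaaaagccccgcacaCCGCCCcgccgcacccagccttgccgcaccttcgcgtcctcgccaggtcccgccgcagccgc
Tubb3, chr8:123411303-123411602: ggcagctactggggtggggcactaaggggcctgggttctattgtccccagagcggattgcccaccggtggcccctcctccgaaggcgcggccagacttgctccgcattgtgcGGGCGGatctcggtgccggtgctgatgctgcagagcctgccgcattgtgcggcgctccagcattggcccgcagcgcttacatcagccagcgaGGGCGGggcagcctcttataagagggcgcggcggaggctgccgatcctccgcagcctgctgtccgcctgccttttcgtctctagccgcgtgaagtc
Both are rich in G and C, with 71.7% in Ina and 67.3% in Tubb3, against a median of 52.7% over the 32851 promoters of the table. Searched on both strands, the GC box matched 2 times in Ina, 2 times in Tubb3 and 5 times in Map2, whose levels did not pass the test, and it is held by 35.7% of all promoters. The TATA box TATAAA, held by 13.6% of promoters, and the cyclic AMP response element core TGACG, held by 20.8%, matched in none of the 3. The E-box CANNTG, held by 72.3%, matched 1 time in Ina and in neither other promoter. A match describes the letters only.

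Nefl encodes the light subunit of the neurofilament. Its log2 level was 12.40, 12.48, 12.42, 12.37 and 12.31 in the 5 dNLS bigenic mice. It was 12.86, 12.84, 12.79 and 12.88 in WT bigenic mice and 12.99, 12.62, 12.89 and 12.94 in dNLS monogenic mice, and the 8 nontransgenic mice had a lowest value of 12.55, a median of 12.90 and a highest value of 13.01. All 5 dNLS bigenic arrays lay below all 16 others. How many of all genes separate groups without overlap was not counted, for this or for any other separation described here. The change against nontransgenic mice was -0.45 ± 0.07 (log2, SE, n = 5 and 8), 1.36-fold lower, at an adjusted p of 0.000285 in limma. It was -0.46 ± 0.08 against dNLS monogenic mice (limma adjusted p 0.00102) and -0.43 ± 0.09 against WT bigenic mice (limma adjusted p 0.00482). WT bigenic mice differed from nontransgenic mice by -0.01, with a 95% interval of -0.18 to 0.15, and dNLS monogenic mice by 0.02, with an interval of -0.15 to 0.19. Nefl remained called in these 3 dNLS comparisons under all 32 other settings tried, with adjusted p up to 0.0484. In tissue RNA of this kind, fewer cells of a type and less RNA in each cell cannot be told apart.

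Some markers of cell types moved in the same mice. The mean log2 level of 7 deep-layer cortical neuron markers was 9.06 to 9.33 over dNLS bigenic arrays, against 9.55 to 9.85 in WT bigenic, 9.46 to 9.77 in dNLS monogenic and 9.37 to 9.81 in nontransgenic arrays, and 4 of the 7 were called lower against nontransgenic mice, among them Crym at -1.02 (limma adjusted p 8.14e-05). The 4 of 7 stand beside 11.5% of all genes called lower, and the count was 2 with arrays centred on their medians. Of 9 pan-neuronal markers, 3 (Rbfox3, Uchl1 and Elavl3) were called higher and 1 (Elavl4) lower in that comparison. These are 33.3% and 11.1%, beside 10.8% and 11.5% of all genes, so that the share called lower was near that of all genes. The 3 higher calls were near the threshold: 0 remained without dNLS bigenic array 1, 2, 3 or 4, nontransgenic array 2 or WT bigenic array 1. Rbfox3 and Uchl1 changed by 0.63 and 0.48 (limma adjusted p 0.0468 and 0.0498). With the beta-actin 3′ minus 5′ difference described below as a covariate these changes were 0.30 and 0.22 (limma adjusted p 0.00547 and 3.20e-05). Without nontransgenic arrays 4 and 6 they were 0.36 and 0.30 (limma adjusted p 0.000814 and 0.00581). The Elavl4 call was lost with the mean of its probe sets (-0.30, limma adjusted p 0.277). The mean level of the 9 pan-neuronal markers was 12.52 to 12.68 in dNLS bigenic and 12.17 to 12.73 in nontransgenic arrays. None of the 3 excitatory neuron markers measured was called; their mean level was 9.12 to 10.13 in dNLS bigenic arrays, against 10.19 to 10.65 in WT bigenic, 9.47 to 10.54 in dNLS monogenic and 8.12 to 10.61 in nontransgenic arrays. The part of these markers in the changes of the 10 genes was not tested.

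Nefm and Nefh, the medium and heavy subunits, did not pass the test in any comparison. Nefm averaged 11.13 ± 0.19 (log2, SD, n = 5) in dNLS bigenic and 11.08 ± 0.17 (n = 8) in nontransgenic mice, and the difference was -0.01 in the fit with sex, with a 95% interval of -0.17 to 0.14 that leaves out a fall of the size of Nefl. Nefl and Nefm lie next to each other on chromosome 14 with no protein-coding gene between them in RefSeq. Nefh levels were 11.28, 11.08, 11.10, 10.90 and 10.87 in dNLS bigenic mice and 10.64, 10.86, 10.75 and 10.69 in WT bigenic mice. These groups did not overlap, but the difference of 0.19 ± 0.14 had an adjusted p of 0.568 in limma. The Nefh difference against nontransgenic mice was 0.21 ± 0.11 (limma adjusted p 0.232, 95% interval -0.03 to 0.45). Each SE uses a spread shared by all groups. The Nefh SD was 0.17 in dNLS bigenic, 0.09 in WT bigenic and 0.31 in nontransgenic mice. The subunits of the polymer thus gave a fall for Nefl, a rise for Ina and no called change for Nefm or Nefh.

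Ina encodes alpha-internexin, a neuronal intermediate filament protein expressed early in development and a subunit of the adult central neurofilament. The probe set of highest level read 13.27, 13.19, 13.26, 13.005 and 13.12 in dNLS bigenic mice. It read 12.60, 12.61, 12.50 and 12.65 in WT bigenic mice, 12.66, 12.74, 12.73 and 12.69 in dNLS monogenic mice, and 11.80 at the lowest, 12.62 at the median and 12.77 at the highest in nontransgenic mice. Every dNLS bigenic array lay above every other array. The change was 0.59 ± 0.12 against nontransgenic mice, 1.5-fold (limma adjusted p 0.00157), and this call held under all 32 other settings. It was 0.46 ± 0.14 against dNLS monogenic mice (limma adjusted p 0.0298) and 0.52 ± 0.15 against WT bigenic mice (limma adjusted p 0.0300). Both of these calls were lost without some single arrays. The first was lost without dNLS bigenic array 1, 2, 3 or 5 or without any 1 of the 4 dNLS monogenic arrays (limma adjusted p 0.0513 to 0.0839). The second was lost without dNLS bigenic array 1, 2, 3 or 5 or WT bigenic array 1 or 3 (limma adjusted p 0.05001 to 0.141). Without each array in turn the changes were 0.43 to 0.51 and 0.47 to 0.57. Their SE uses a spread shared by all groups. The SD was 0.11 in dNLS bigenic, 0.04 in dNLS monogenic, 0.06 in WT bigenic and 0.31 in nontransgenic mice. Centring the arrays on their medians over genes also ended both calls, at limma adjusted p of 0.0884 and 0.0625. In the fit over all probe sets centring left this probe set at 0.0131 and 0.00511.

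The other Ina probe sets gave the same direction with larger changes. The dimmest of the 3 read 11.54 ± 0.14 (log2, SD, n = 5) in dNLS bigenic mice, against 10.57 ± 0.08 (n = 4) in WT bigenic, 10.56 ± 0.08 (n = 4) in dNLS monogenic and 10.31 ± 0.33 (n = 8) in nontransgenic mice. In the fit over all probe sets its change was 1.21 ± 0.13 against nontransgenic mice, 2.31-fold (limma adjusted p 6.16e-06), 0.98 ± 0.15 against dNLS monogenic mice (limma adjusted p 0.000327) and 0.93 ± 0.17 against WT bigenic mice (limma adjusted p 0.00143). The remaining one changed by 0.79 ± 0.07, 0.76 ± 0.08 and 1.01 ± 0.09 against nontransgenic, dNLS monogenic and WT bigenic mice, with limma adjusted p of 4.79e-07, 6.08e-06 and 1.25e-06. All 3 probe sets thus separated the dNLS bigenic mice from all others, and the share of all probe sets that do so was not counted. In the fit over all probe sets they remained called in these 3 comparisons with centred arrays, with the 3′ bias of the array as a covariate, and without nontransgenic arrays 4 and 6. Of the 16 probe sets of the 10 genes, 6 were called against nontransgenic mice, where 19.7% of all probe sets were. The count was 6 against dNLS monogenic mice, with 12% of all probe sets called, and 5 against WT bigenic mice, with 8.64%.

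**Figure D2:**
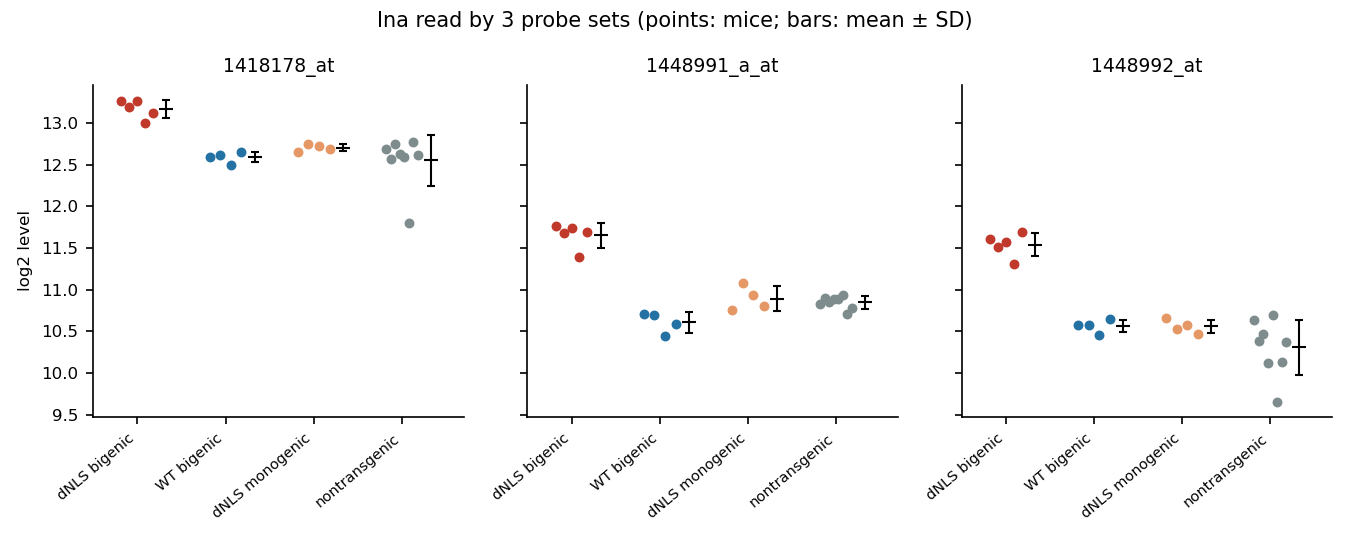
Log2 level of Ina (vertical axis) on each array as read by its 3 probe sets, 1 panel each from the brightest on the left, by genotype group, with the group mean and SD beside the points. In each panel the 5 dNLS bigenic arrays lie above all 16 others.

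Tubb3, the neuron-specific beta-tubulin, rose by a smaller amount. Its log2 level was 13.12, 13.12, 13.04, 13.06 and 13.25 in dNLS bigenic mice. It was 12.9999, 13.11, 12.94 and 13.004 in WT bigenic mice, 12.87, 12.95, 12.95 and 12.93 in dNLS monogenic mice, and 12.81, 12.95 and 13.03 at the lowest, median and highest in nontransgenic mice. The dNLS bigenic values lay above all dNLS monogenic and nontransgenic values and overlapped those of WT bigenic mice. The change was 0.20 ± 0.04 against nontransgenic mice, 1.15-fold (limma adjusted p 0.00215), and 0.20 ± 0.05 against dNLS monogenic mice (limma adjusted p 0.0104, and 0.141 with arrays centred on their medians over genes). In the fit over all probe sets centring ended both calls, with changes of 0.12 and 0.16 at limma adjusted p of 0.113 and 0.164. Against WT bigenic mice it was 0.12 ± 0.05 with a limma adjusted p of 0.185 and a 95% interval of 0.01 to 0.23.

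Mapt, the gene of tau, and Map2, a dendritic and somatic microtubule-associated protein, did not pass the test. Mapt read 11.74, 11.73, 11.71, 11.88 and 11.46 in dNLS bigenic mice and 10.13, 11.62 and 11.75 at the lowest, median and highest in nontransgenic mice, a difference of 0.25 ± 0.21 (limma adjusted p 0.507). The lowest value came from nontransgenic array 6, and without nontransgenic arrays 4 and 6 the difference of this Mapt probe set was 0.04 ± 0.06. The other 2 Mapt probe sets differed by 0.71 ± 0.41 and 0.73 ± 0.39 with all arrays, neither called, and nontransgenic array 6 was the lowest on both of them as well. Map2 was read at a lower level and with more spread, 7.54 ± 0.54 (log2, SD, n = 5) in dNLS bigenic and 7.15 ± 1.01 (n = 8) in nontransgenic mice. Its 95% interval of -0.69 to 1.60 leaves changes in both directions possible. The second Map2 probe set lay between 2.88 and 4.27 on all arrays, near the lowest value of the array, so that it could show little change.

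Stmn2, also called SCG10, encodes a stathmin that binds tubulin dimers in growing and regenerating axons. In human neurons loss of nuclear TDP-43 is known to truncate its transcript through a cryptic exon that is not conserved in the mouse. Its representative probe set read 12.65, 12.72, 12.75, 12.76 and 12.48 in dNLS bigenic mice, against 12.95, 12.91, 12.85 and 12.96 in WT bigenic, 12.90, 12.72, 12.93 and 12.94 in dNLS monogenic mice, and 11.93, 12.84 and 12.95 at the lowest, median and highest in nontransgenic mice. The dNLS bigenic values lay below all WT bigenic values and inside the range of nontransgenic values. The SD of this probe set was 0.12 in dNLS bigenic, 0.05 in WT bigenic and 0.35 in nontransgenic mice. The SE of each difference uses a spread shared by all groups. With all arrays the Stmn2 difference was -0.05 ± 0.14 against nontransgenic mice (adjusted p 1 in limma, 95% interval -0.34 to 0.24), -0.20 ± 0.16 against dNLS monogenic mice (adjusted p 0.555) and -0.28 ± 0.17 against WT bigenic mice (adjusted p 0.407).

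The call for Stmn2 depended on the arrays with the most 3′ bias, a sign of degraded or incompletely transcribed RNA that is measured as the beta-actin 3′ minus 5′ control probe sets. That difference was 8.20 on nontransgenic array 6 and 4.70 on nontransgenic array 4, against 1.34 to 2.30 on dNLS bigenic arrays, and both of these nontransgenic arrays gave the lowest Stmn2 levels of their group, 11.93 and 12.48. Without these arrays Stmn2 changed in dNLS bigenic mice by -0.19 against nontransgenic mice (limma adjusted p 0.0208), -0.20 against dNLS monogenic mice (limma adjusted p 0.0289) and -0.24 against WT bigenic mice (limma adjusted p 0.0195). With the 3′ bias as a covariate the changes were -0.26, -0.24 and -0.22, with limma adjusted p of 3.26e-06, 1.87e-05 and 0.000122. The second Stmn2 probe set did not follow against nontransgenic mice: its difference was 0.34 ± 0.19 with all arrays, 0.12 ± 0.09 without nontransgenic arrays 4 and 6 (adjusted p 0.410) and 0.06 ± 0.07 with the covariate (adjusted p 0.646). With all arrays its difference was 0.02 ± 0.21 against dNLS monogenic mice and -0.18 ± 0.23 against WT bigenic mice, neither called. On this probe set, too, the dNLS bigenic values lay below all WT bigenic values. The direction for Stmn2 was therefore not settled between its probe sets. Nefl read 12.55 on nontransgenic array 4 and 12.68 on nontransgenic array 6, and without both arrays its change against nontransgenic mice was -0.53 (limma adjusted p 4.70e-06).

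**Figure D3:**
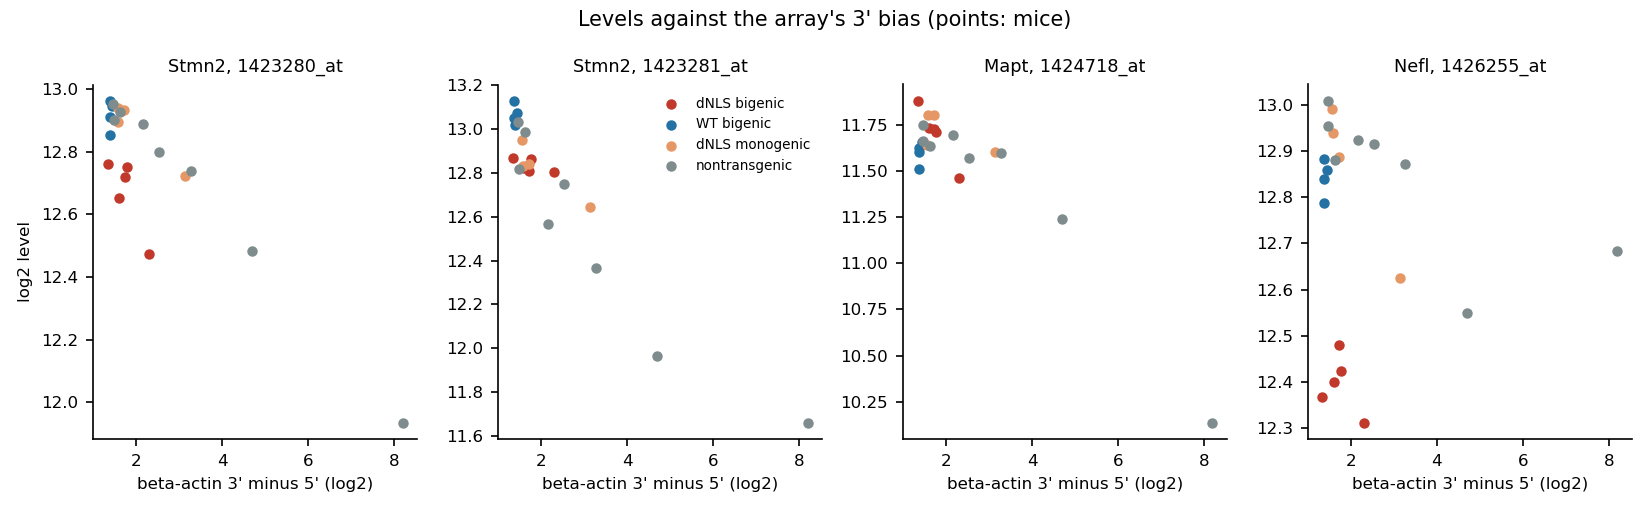
Log2 level (vertical axis) of both Stmn2 probe sets, the representative Mapt probe set and Nefl against the beta-actin 3′ minus 5′ difference of the same array (horizontal axis, log2), coloured by genotype group. The nontransgenic arrays at 4.70 and 8.20 hold the lowest values for Mapt and for the second Stmn2 probe set, and the 5 dNLS bigenic arrays stand apart from all others for Nefl.

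Gap43 encodes a membrane protein of growth cones and presynaptic terminals. It read 10.54, 10.92, 10.80, 10.95 and 10.78 in dNLS bigenic mice and 11.08, 11.10, 11.13 and 11.34 in WT bigenic mice, without overlap, while dNLS monogenic mice ranged over 10.70 to 11.43 and nontransgenic mice over 10.22 to 11.39. The difference against WT bigenic mice was -0.27 ± 0.23 (limma adjusted p 0.662) and that against nontransgenic mice 0.02 ± 0.19, with a 95% interval of -0.38 to 0.41. Against dNLS monogenic mice it was -0.31 ± 0.22 (limma adjusted p 0.494), and with the 3′ bias as a covariate -0.35 (limma adjusted p 0.0398). The SE of each comparison uses a spread shared by all groups. The Gap43 SD was 0.16 in dNLS bigenic, 0.12 in WT bigenic, 0.31 in dNLS monogenic and 0.45 in nontransgenic mice. A fit of the bigenic groups alone was not run, so the lack of a call does not show that they are equal.

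Thy1 encodes a glycolipid-anchored surface protein of mature axons and neurons. Its log2 level was 13.42, 13.44, 13.38, 13.33 and 13.42 in dNLS bigenic mice. It was 13.02, 13.06, 12.996 and 13.12 in WT bigenic mice, 12.98, 13.16, 12.96 and 12.98 in dNLS monogenic mice, and 12.91, 13.07 and 13.14 at the lowest, median and highest in nontransgenic mice. The dNLS bigenic mice lay above all others. The Thy1 change was 0.34 ± 0.04 against nontransgenic mice, 1.26-fold (limma adjusted p 1.40e-05), 0.38 ± 0.05 against dNLS monogenic mice (limma adjusted p 3.34e-05), and 0.33 ± 0.05 against WT bigenic mice (limma adjusted p 0.000325). In WT bigenic mice Thy1 differed from nontransgenic mice by less than 0.01, with a 95% interval of -0.09 to 0.10.

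**Figure D4:**
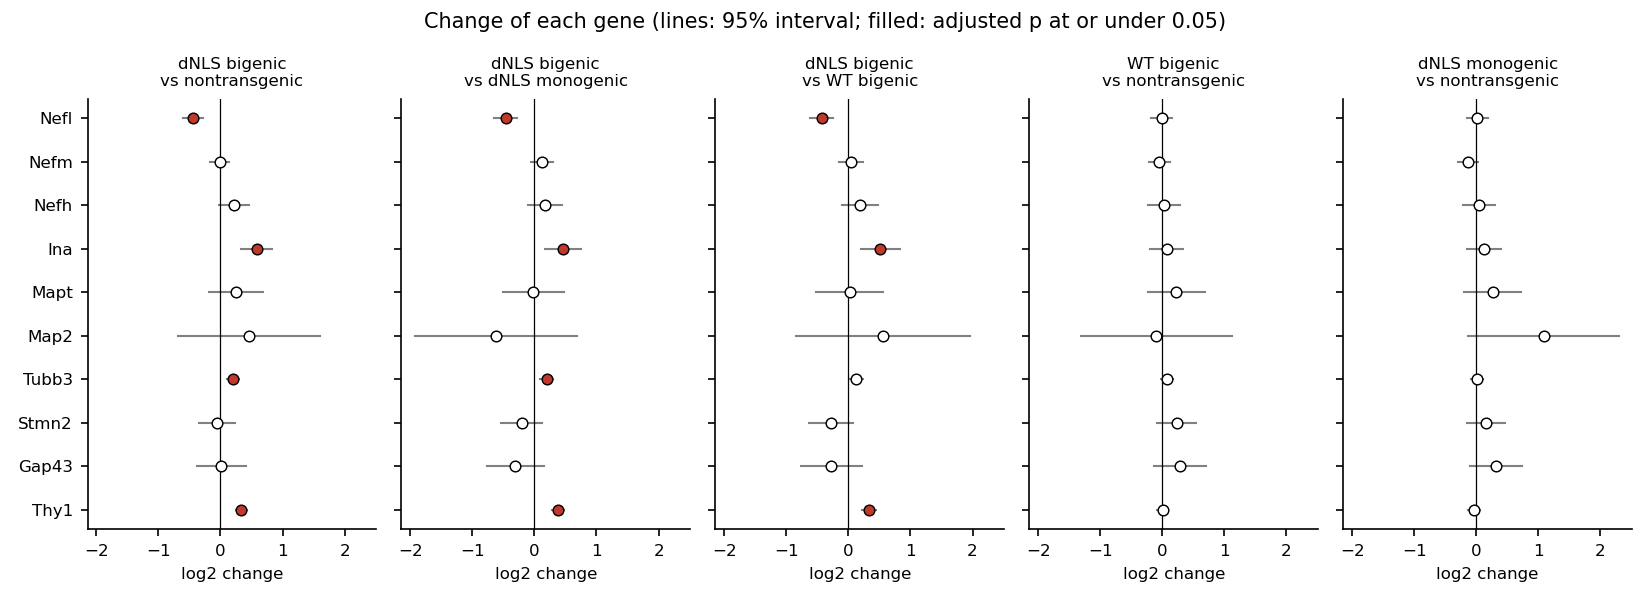
Log2 change of each of the 10 genes (horizontal axis) in 5 comparisons, with 95% intervals as lines and filled points where the limma adjusted p was at or under 0.05. Filled points stand only in the 3 comparisons of dNLS bigenic mice, and the interval of Map2 is the widest.

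The other genes of the axonal cytoskeleton were taken from 7 lists of 113 genes, of which 97 were measured. In dNLS bigenic against nontransgenic mice 14 of the 97 were called higher and 21 lower, 14.4% and 21.6% beside 10.8% and 11.5% of all genes. The counts were 8 higher and 15 lower against dNLS monogenic mice, 8.25% and 15.5% beside 7.76% and 6.54% of all genes. They were 8 higher and 4 lower against WT bigenic mice, 8.25% and 4.12% beside 6.24% and 4.53%. The shares called higher against dNLS monogenic mice and lower against WT bigenic mice were thus near those of all genes. The shares of all genes are lowered by the 2854 genes at the lowest value on all arrays. Whether a list exceeds the share among genes above that value was not tested. In WT bigenic against nontransgenic mice 1 was called higher and 2 lower, 1.03% and 2.06% of the 97. There 85 of all 12393 genes were called higher and 191 lower, so that these counts were small on both sides. In dNLS monogenic against nontransgenic mice 0 were called, and 0 of all genes.

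Kif5a, a neuronal kinesin heavy chain that carries cargo outward along axons, had the largest called rise in these lists. It read 9.93 ± 0.23 (log2, SD, n = 5) in dNLS bigenic and 8.18 ± 0.51 (n = 8) in nontransgenic mice, a change of 1.84 ± 0.24 (limma adjusted p 2.42e-05). Kif5a rose by 1.84 ± 0.27 against dNLS monogenic mice (limma adjusted p 0.000146) and by 1.34 ± 0.29 against WT bigenic mice (limma adjusted p 0.00580), and its second probe set lay at the lowest value with a change of 0.00, so that the mean of both gave 0.92 against nontransgenic mice (limma adjusted p 3.18e-05). Kif5b, a more widely expressed heavy chain, changed by 0.65 ± 0.14 against nontransgenic mice (limma adjusted p 0.00254), with other probe sets from -0.08 to 1.12. The kinesin light chain Klc1 and the dynein intermediate chain Dync1i1, of the same list, changed by -0.30 ± 0.05 and -0.49 ± 0.09 (limma adjusted p 0.000106 and 0.000574). With the mean of its 3 probe sets Klc1 was at -0.005 and no longer called, at a limma adjusted p of 1. Of the 21 transport genes measured, 5 rose and 3 fell against nontransgenic mice, 23.8% and 14.3% beside 10.8% and 11.5% of all genes, and 1 fell with the mean of all probe sets. Against WT bigenic mice 2 were called higher, Kif5a and Ndel1, and 0 lower, 9.52% and 0% beside 6.24% and 4.53%. Kif5b, Klc1 and Dync1i1 were thus not called there. Ndel1 changed by 0.54, 0.53 and 0.55 against nontransgenic, dNLS monogenic and WT bigenic mice (limma adjusted p 3.41e-07, 3.32e-06 and 1.06e-05). With the mean of its 2 probe sets Ndel1 was at 0.40 and 0.11 against the latter groups, not called.

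Among 10 other tubulins 4 fell and 0 rose against nontransgenic mice, 40% and 0% beside 11.5% and 10.8% of all genes, and 2 fell with arrays centred on their medians. Tuba1a, an abundant neuronal alpha-tubulin, changed by -0.20 ± 0.03 (limma adjusted p 3.36e-05) and Tubb2b by -0.30 ± 0.08 (limma adjusted p 0.00845, and -0.20 at 0.00246 with the 3′ bias as a covariate). Against WT bigenic mice none of the 10 was called as reported, while up to 5 were called lower and up to 1 higher under other settings. Of 20 microtubule regulators 2 rose and 4 fell, 10% and 20% beside 10.8% and 11.5% of all genes, so that the share that rose was near that of all genes. The number that fell was 2 with centred arrays, with quantile normalization or without dNLS bigenic array 3. Map6, which stabilises microtubules against cold, changed by 0.56 ± 0.12 (0.37 without dNLS bigenic array 5) and Mapre3, a plus-end binding protein, by 0.29 ± 0.06 (limma adjusted p 0.00248 and 0.000827). Stmn1, the ubiquitous stathmin, changed by -0.38 ± 0.06 and Katna1, the catalytic subunit of a severing enzyme, by -0.47 ± 0.11 (limma adjusted p 0.000223 and 0.00609). Both Stmn1 probe sets were called lower.

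The 14 growth cone genes measured held 4 that fell and 0 that rose, 28.6% and 0% beside 11.5% and 10.8% of all genes. Rtn4, the gene of the outgrowth inhibitor Nogo, changed by -0.39 ± 0.03 (limma adjusted p 4.32e-07), and Dpysl4, a collapsin response mediator, by -0.73 ± 0.17 (limma adjusted p 0.00369). The other 2 Dpysl4 probe sets were not called, at -0.13 and 0.01, and the mean of the 3 was -0.28 (limma adjusted p 0.00956). Against dNLS monogenic and WT bigenic mice Dpysl4 was not called. The Rtn4 call rested on its brighter probe set: with the mean of both it was -0.22 at a limma adjusted p of 0.745. Of 12 genes of the axon membrane and initial segment 3 rose and 3 fell, 25% each beside 10.8% and 11.5% of all genes. The adhesion molecule L1cam rose by 0.55 ± 0.07, with 2 probe sets in the same direction and a mean of both at 1.03, and its relative Chl1 fell by 0.70 ± 0.16 (limma adjusted p 2.58e-05 and 0.00422). Cntnap1, of the paranode, changed by 1.59 ± 0.52 with a limma adjusted p of 0.0381. That p moved to 0.0504 to 0.0845 without any 1 of the dNLS bigenic arrays, dNLS monogenic array 4 or nontransgenic array 2, 3 or 4, and with the 3′ bias as a covariate the change was 0.79 (limma adjusted p 0.000785). Cntnap2, of the juxtaparanode, changed by -0.31 ± 0.10 with 0.0338. This call was lost without dNLS bigenic array 1, 2, 3 or 5 or nontransgenic array 1 or 4 (limma adjusted p 0.0520 to 0.108), with the 3′ bias as a covariate (-0.22 at 0.0886) and with the mean of its probe sets (-0.13 at 0.997). Cntnap1 and Cntnap2 were not called against dNLS monogenic or WT bigenic mice.

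Of 15 kinases and phosphatases that act on tau and neurofilament tails 4 rose and 3 fell, 26.7% and 20% beside 10.8% and 11.5% of all genes, and 2 rose and 2 fell with the mean of all probe sets. Cdk5, a neuronal proline-directed kinase, changed by 0.44 ± 0.12 and its activator Cdk5r1, the gene of p35, by -0.54 ± 0.06 (limma adjusted p 0.00950 and 2.86e-06), and with the mean of its 4 probe sets Cdk5r1 was -0.38 at 0.385. The second Cdk5 probe set was not called, at a change of 0.00 ± 0.15, and the mean of both was 0.22 (limma adjusted p 0.0264). Without nontransgenic arrays 4 and 6 the Cdk5 change was 0.29 (limma adjusted p 0.000394). Mapk8, the gene of JNK1, changed by 0.49 ± 0.15 (limma adjusted p 0.0206, 0.0524 without dNLS bigenic array 1, and 0.222 at a change of 0.21 with the mean of its probe sets) and Ppp2ca, a catalytic subunit of protein phosphatase 2A, by -0.31 ± 0.04 (limma adjusted p 3.25e-05). With the 3′ bias as a covariate the Mapk8 change was 0.30 (limma adjusted p 0.0125). Against dNLS monogenic mice 1 of the 15 was called higher, Csnk1d, 6.67% beside 7.76% of all genes and thus near that share. Against WT bigenic mice 2 were, Mark4 and Csnk1d, 13.3% beside 6.24%, and 0 without WT bigenic array 1. Cdk5 and Mapk8 were called higher in neither of these comparisons. The 5 other intermediate filament genes measured had 0 called against nontransgenic mice.

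**Figure D5:**
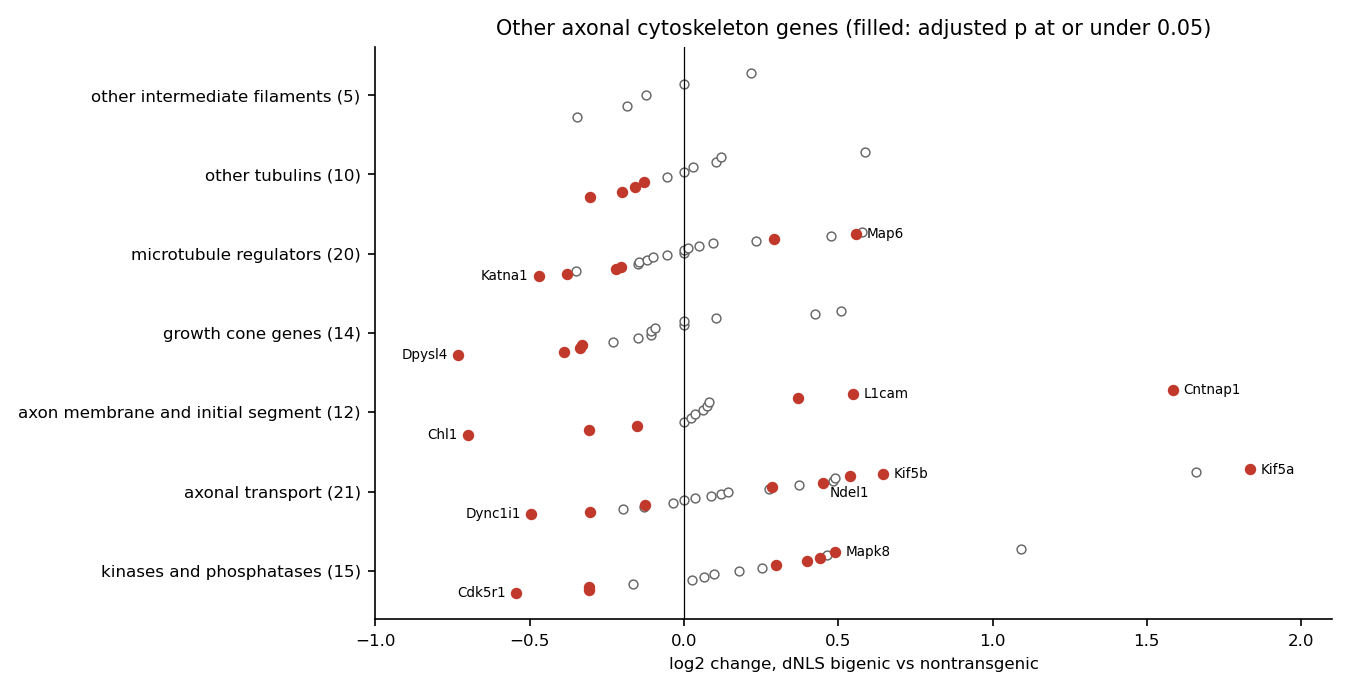
Log2 change of 97 other axonal cytoskeleton genes in dNLS bigenic against nontransgenic mice (horizontal axis), by list with the number measured, filled where the limma adjusted p was at or under 0.05. Kif5a stands farthest to the right, and the called tubulins and growth cone genes all lie to the left of 0.

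The arrays had medians of 5.76 to 6.05, with 30.7% to 32.4% of probe sets at the lowest value of 2.04. The beta-actin 3′ minus 5′ measure averaged 3.18 ± 2.31 in nontransgenic, 2.00 ± 0.76 in dNLS monogenic, 1.75 ± 0.35 in dNLS bigenic and 1.39 ± 0.03 in WT bigenic mice (log2, SD). Nontransgenic arrays 1 and 2, at 2.53 and 3.27, also lay above all dNLS bigenic arrays. No difference between groups in this measure passed the threshold (two-sided exact permutation tests, adjusted p 0.288 to 0.619), and the small groups limit these tests. The same measure for Gapdh, 3′ minus middle, averaged 0.45 ± 0.02 in dNLS bigenic and 0.56 ± 0.09 in dNLS monogenic mice (log2, SD, n = 5 and 4, exact permutation adjusted p 0.0397). Mouse Tardbp, the endogenous gene of TDP-43, changed by -0.22 ± 0.07 in dNLS bigenic against nontransgenic mice (limma adjusted p 0.0212), and by -0.17 against dNLS monogenic and -0.18 against WT bigenic mice, not called (limma adjusted p 0.165 and 0.218). These values are of the probe set that stood for the gene, and whether it also reads the human transgene was not tested. No marker of the 8 cell-type lists lay at the lowest value on all arrays. Of the markers of other cell types, 2 of 6 interneuron, 1 of 6 oligodendrocyte, 1 of 6 astrocyte, 1 of 7 microglial and 0 of 5 endothelial genes were called lower in dNLS bigenic against nontransgenic mice, where 11.5% of all genes were, and 0 were called higher. The oligodendrocyte call, Mbp at -0.13 (limma adjusted p 0.0398), was lost without any 1 of the dNLS bigenic arrays and held in 13 of 32 other settings. The interneuron gene Gad1 changed by -0.20 (limma adjusted p 0.0258), a call lost without dNLS bigenic array 2, 3 or 5, with centred arrays and with the 3′ bias as a covariate, and was 0.76 with the mean of its 2 probe sets (limma adjusted p 0.424). The mean level of the astrocyte markers was 11.96 to 12.07 in dNLS bigenic arrays, against 12.28 to 12.50 in WT bigenic, 12.20 to 12.25 in dNLS monogenic and 11.82 to 12.36 in nontransgenic arrays. That of the microglial markers was 8.54 to 9.36 in dNLS bigenic arrays, against 9.68 to 10.62 in WT bigenic, 9.23 to 9.57 in dNLS monogenic and 8.66 to 9.86 in nontransgenic arrays. The part of these markers in the results above was not tested. By label male, 1 nontransgenic array read as female from Xist and Y-linked genes, and using the sex as read changed no call of the 10 genes.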

How the data were processed

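The deposited values are log2 levels of 22690 Affymetrix probe sets on 21 arrays, 1 for each mouse. The base was read from their range of 2.04 to 15.1. Partek is named without a version, per the submitters' processing notes. How the background was corrected and the arrays normalized is not given in the sources used here. After 64 control probe sets were set aside, 20380 named 1 gene in the supplied probe table, 691 several and 1555 none, and only the first were used.

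The probe set of highest mean stood for each of 12393 genes. All 21 arrays entered 1 model with 4 groups and sex as labelled (limma 3.58.1, R 4.3.3, lmFit and eBayes with an intensity trend), with Benjamini-Hochberg adjustment over all genes, or over all probe sets in a second fit. The scripts were tested on simulated data. The number of arrays limits the precision. No step was taken against values at the lowest level, where changes are compressed.

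The 10 genes, the 7 pathway and 8 marker lists and the alternatives were chosen with earlier results of these data known. Named from the pathway lists were the 2 largest increases and decreases past the threshold per list and comparison, of which part is printed. Tardbp was added as the gene of the transgene's protein. Array numbers in the titles run in blocks of one group, so an effect of that order and the group cannot be told apart. Promoters are from RefSeq, assembly GRCm38.p6.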

Additional observations from a re-analysis of the deposited data

Results flagged for a closer look

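Each of the 4 groups, of 4, 4, 5 and 8 arrays, was examined for a highest or lowest array far from the rest, over the 10 genes and 2 measures of RNA quality. Of 48 groups 9 stood out, where chance gives about 1 in 20. Nontransgenic array 6 was the lowest of its group for Ina at 11.80, for Mapt at 10.13 and for Stmn2 at 11.93, and the highest for the Gapdh 3′ minus middle difference at 1.82. The dNLS monogenic array 4 was the lowest of its group for Nefm at 10.73, and dNLS monogenic array 2 the highest for Thy1 at 13.16 and for the beta-actin 3′ minus 5′ difference at 3.13. The WT bigenic array 1 was the highest of its group for the beta-actin difference at 1.43 and WT bigenic array 4 for the Gapdh difference at 0.475, both in groups of narrow range.

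The change with dNLS TDP-43 differed from that with wild-type TDP-43 for 3 genes. Both changes are taken against the same nontransgenic mice, so their difference is the direct comparison of both bigenic groups. It was -0.43 for Nefl, 0.52 for Ina and 0.33 for Thy1 on the log2 scale, each past the threshold in limma. For Ina this call was lost without single arrays, as given with its values.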

How the results depend on the processing

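The results were recomputed under 11 other settings and without each of the 21 arrays in turn. The count of the 10 genes called against dNLS monogenic mice was 2 with arrays centred on their medians, against 4 as reported, because Ina and Tubb3 were no longer called. Centring moved the median change against nontransgenic mice by 0.02 over genes and by -0.08 over all probe sets, where the Tubb3 call was lost too. Without single arrays the counts were 4 to 4 against nontransgenic mice, 3 to 4 against dNLS monogenic mice and 2 to 3 against WT bigenic mice, and 0 to 0 in the other 2 comparisons. The pathway genes called against nontransgenic mice numbered 30 to 39, against 35 as reported. The 16 probe sets gave 5 called with centred arrays, 7 with the 3′ bias as a covariate and 7 without nontransgenic arrays 4 and 6, against 6 as reported, and these 3 alternatives for probe sets were chosen after the data had been seen. Over the single genes, 17 values lost a call and 7 gained one. No called value changed sign, and 23 of the 39 changes that were not called did, with a size of at most 0.29. No paired analysis was possible because the labels give no replicate numbers shared between groups. The spread of the 8 nontransgenic arrays, the 4 or 5 arrays of each other group and the common lowest value limit what could be detected.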
